A study of Mus musculus with 2 samples.

Results

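The microRNA clusters in the noncoding gene Mir17hg (Mir17 to Mir92-1) and in the protein-coding gene Mcm7 (Mir106b to Mir25) were examined in mouse calf muscle. The 9 members were chosen by gene identifier in the GENCODE M21 annotation: Mir17, Mir18, Mir19a, Mir20a, Mir19b-1 and Mir92-1 in Mir17hg, and Mir106b, Mir93 and Mir25 in Mcm7. They are 9 of the 2202 microRNA genes in the deposited tables. The series holds 1 group of 2 microRNA-seq libraries of gastrocnemius total RNA from male B6CASTF1/J mice aged 36 days, which are hybrids of C57BL/6J and CAST parents and have no treatment in the labels. The labels describe replicates 1 and 2 as different males, although both carry the same donor identifier. With no second condition, the comparisons are between members within a library, between the 2 clusters, between seed families and between the 2 libraries.

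A cluster of this kind is transcribed as 1 long RNA, from which each hairpin is cut out and then trimmed to a mature microRNA of 1 or both arms. A mature microRNA finds its target messages mainly through its seed, bases 2 to 8 from the 5′ end, so members with the same seed are expected to share targets. The Mir17hg cluster is induced by Myc and E2F factors in dividing cells, and its members are known to repress the cell-cycle inhibitor Cdkn1a and the pro-apoptotic Bcl2l11. Mcm7, the host of the other cluster, encodes a subunit of the helicase that unwinds DNA at replication.

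The 9 members fall into 4 seeds, and the mature arm that gives each member its family name is printed here because the results are compared by seed. The sequences are those of RefSeq (GRCm38.p6), with the seed in capitals.
miR-17-5p: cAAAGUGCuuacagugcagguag
miR-20a-5p: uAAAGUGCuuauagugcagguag
miR-93-5p: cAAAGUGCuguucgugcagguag
miR-106b-5p: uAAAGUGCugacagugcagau
miR-18a-5p: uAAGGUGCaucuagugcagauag
miR-19a-3p: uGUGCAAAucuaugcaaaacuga
miR-19b-3p: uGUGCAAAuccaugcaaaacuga
miR-92a-3p: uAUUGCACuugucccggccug
miR-25-3p: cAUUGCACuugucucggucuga
The seed AAAGUGC is carried by members of both clusters, Mir17 and Mir20a in Mir17hg and Mir93 and Mir106b in Mcm7. The seed AUUGCAC is likewise split between Mir92-1 in Mir17hg and Mir25 in Mcm7. The seeds AAGGUGC (Mir18) and GUGCAAA (Mir19a and Mir19b-1) occur in Mir17hg and have no counterpart in Mcm7. Counted from 1 at the 5′ end, miR-20a-5p differs from miR-17-5p by C1U and C12U, and miR-93-5p differs from it by U10G, A11U, C12U and A13C. Over their 21 shared positions, miR-106b-5p differs from miR-17-5p by C1U, U10G and G20A. The arms miR-19a-3p and miR-19b-3p differ by U11C alone.

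In total 4134880 reads of replicate 1 and 3219740 of replicate 2 were counted on the strand of a microRNA gene, 20.96% and 19.2% of all reads. Levels are given as CPM, counts per 1000000 counted reads, with mean ± SD over n = 2 libraries. They are not divided by gene length, since a read covers a whole mature arm of 21 to 23 bases. The tables count by gene, so reads of the 5p and 3p arms of a hairpin are summed. Reads that aligned to several loci, 70.4% and 73.3% of all reads, are in a row of their own that names no gene. All 9 listed striated muscle microRNAs had at least 10 counts in both libraries, and they summed to 27367 and 30442 CPM. Most of this was at 1 gene, Mir206, which averaged 27262 CPM. This sum and those that follow leave out reads aligned to several loci, so they do not give the share of each cell type. The endothelial Mir126a (85413 and 95833 CPM), 6 smooth muscle and fibroblast genes (86700.2 and 94619 CPM, 5 of them with 10 counts in both libraries), 5 leukocyte genes (2326 and 2425 CPM) and 2 red cell genes (405 and 394 CPM) were also present. Most of the smooth muscle and fibroblast sum was at 1 gene, Mir143, which averaged 86966 CPM. Of 9 neuron and glia genes, 3 had 10 counts in both libraries and all of the Mir124a and Mir9 loci, 6 in number, were at 0. The list summed to 4297 and 1244 CPM, most of it at Mir338, which averaged 2761 CPM. These lists show a whole tissue of several cell types, in which fewer cells of a type and less RNA per cell cannot be told apart, and their part in the members' levels was not tested.

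Mir17hg carried 4 well-counted members and 2 that were almost uncounted. Its genes lie in exon 2 of the host transcript on the plus strand of chromosome 14 (mm10), within 836 bases from 115043671 to 115044506. Mir17 (ENSMUSG00000065508.1, 115043671 to 115043754), the first hairpin, was counted 6210 times in replicate 1 and 4138 times in replicate 2, which gives 1502 and 1285 CPM (mean 1394 ± 153). Mir18 (ENSMUSG00000065403.1, 115043851 to 115043946), which follows after a gap of 96 bases, had 1173 and 741 counts, or 284 and 230.1 CPM (mean 257 ± 37.9). Both were somewhat higher in replicate 1, and their ranges over the libraries did not overlap.

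Mir19a (ENSMUSG00000065416.1, 115044000 to 115044081) was counted 2 times and 1 time, at 0.484 CPM (0.0586 to 1.75, an exact Clopper-Pearson 95% interval) in replicate 1 and 0.311 CPM (0.00786 to 1.73) in replicate 2. Its family is known as the main oncogenic part of the cluster in B-cell lymphoma. Mir20a (ENSMUSG00000065442.1, 115044157 to 115044263), 75 bases downstream, had 3876 and 2975 counts, or 937 and 924 CPM (mean 931 ± 9.48). Mir19b-1 (ENSMUSG00000076256.1, 115044305 to 115044391) had 3 counts and 1 count, or 0.726 CPM (0.150 to 2.12) and 0.311 CPM (0.00786 to 1.73). Along the host transcript the order was therefore high, intermediate, near 0, high, near 0 and intermediate, in both libraries alike.

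Mir92-1 (ENSMUSG00000076062.1, 115044427 to 115044506), the last hairpin and the locus of miR-92a, a microRNA known to restrain vessel growth in endothelium, had 1421 and 1044 counts. That is 344 and 324 CPM (mean 334 ± 13.7). Mir17 thus held 47.7% ± 1.74 of the cluster's counts, Mir20a 32.0% ± 2.03, Mir92-1 11.5% ± 0.373 and Mir18 8.79% ± 0.651. The shares of Mir19a were 0.0158% and 0.0112%, and those of Mir19b-1 were 0.0237% and 0.0112%.

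**Figure D1:**
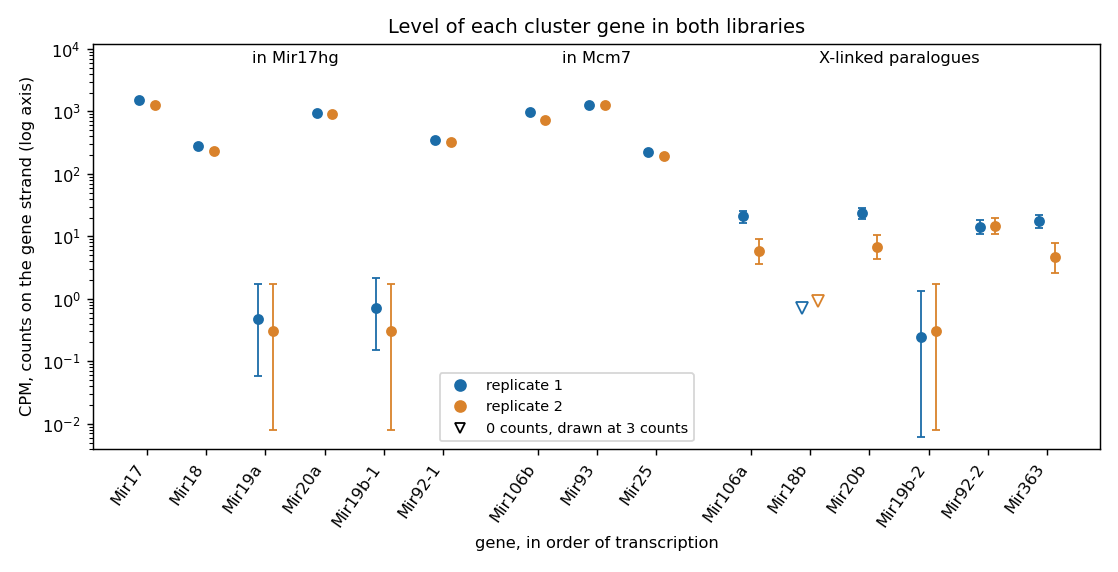
CPM on a log axis for the genes of the Mir17hg, Mcm7 and X-linked clusters in order of transcription, as points for replicates 1 and 2 with exact Clopper-Pearson 95% intervals (counting error only, smaller than the point for abundant genes). Mir19a and Mir19b-1 lie below 1 CPM between neighbours at 257 to 931 CPM on average, and Mir18b, with 0 counts, is drawn at 3 counts.

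Mcm7 carried 3 members, all well counted. They lie on the minus strand of chromosome 5 within 498 bases from 138165321 to 138165818, in an intron of the protein-coding transcripts, and Mir93 and Mir25 also lie in an exon of a retained-intron transcript. Mir106b (ENSMUSG00000065514.1, 138165737 to 138165818), the first in order of transcription, had 4118 and 2355 counts, or 996 and 731 CPM (mean 864 ± 187). Mir93 (ENSMUSG00000065527.1, 138165523 to 138165610) had 5321 and 4066 counts, or 1287 and 1263 CPM (mean 1275 ± 17.0). Mir25 (ENSMUSG00000065394.1, 138165321 to 138165404), known in heart muscle as a regulator of the calcium pump Atp2a2, had 938 and 619 counts, or 227 and 192 CPM (mean 209.6 ± 24.5). Mir93 was the highest and Mir25 the lowest of the 3 in both libraries.

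The makeup of the clusters shifted between the libraries, most of all in Mcm7. With exact Clopper-Pearson 95% intervals in brackets, Mir106b held 39.7% (38.7 to 40.6) of the cluster's counts in replicate 1 and 33.5% (32.3 to 34.6) in replicate 2. Mir93 held 51.3% (50.3 to 52.2) and 57.8% (56.6 to 58.9). The intervals of the 2 libraries did not overlap for either gene, while Mir25 held 9.04% (8.49 to 9.61) and 8.79% (8.14 to 9.48). In Mir17hg, Mir20a held 30.6% (29.8 to 31.4) and 33.4% (32.4 to 34.4), and Mir17 held 49.0% (48.1 to 49.8) and 46.5% (45.5 to 47.5), so both shares also moved by more than counting error. These intervals cover counting error only, as PCR copies are not independent molecules, and with 1 library on each side the shifts have no replicate check.

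**Figure D2:**
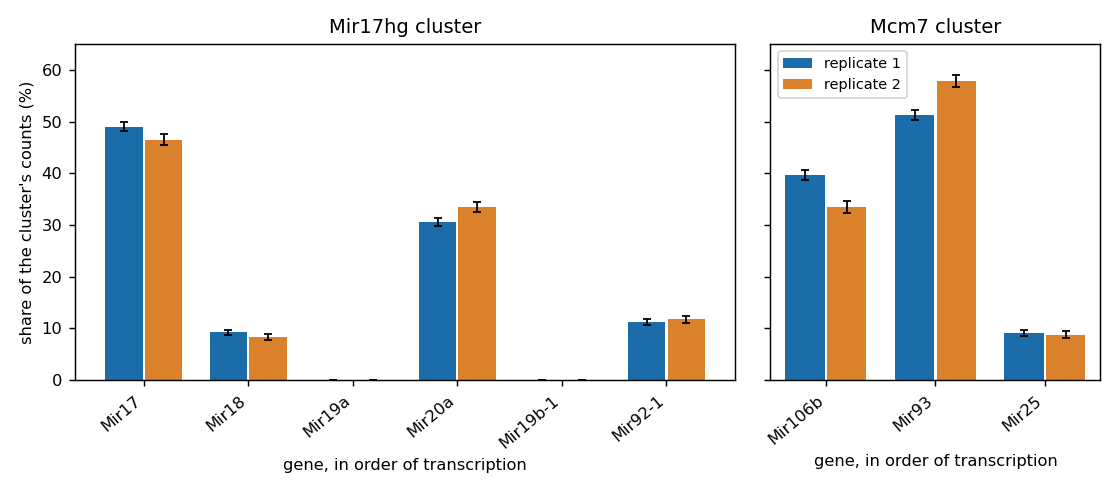
Percent of each cluster's counts held by each gene, as bars for replicates 1 and 2 with exact Clopper-Pearson 95% intervals of counting error. Mir17 leads the Mir17hg cluster and Mir93 the Mcm7 cluster in both libraries, and the largest shift between libraries is that of Mir93, from 51.3% to 57.8%.

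By mean CPM the 9 members ranked Mir17, Mir93, Mir20a, Mir106b, Mir92-1, Mir18, Mir25, Mir19b-1 and Mir19a. Mir17 and Mir93, the leaders of the clusters, did not differ beyond their spread: their ranges over the libraries overlapped, and the log2 ratio of counts of Mir93 over Mir17 was −0.12 ± 0.14 (n = 2). Within each library Mir17 was the higher. The ratio was −0.22 (counting interval −0.28 to −0.17) in replicate 1 and −0.03 (−0.09 to 0.04) in replicate 2. Mir20a and Mir106b exchanged places between the libraries, with a log2 ratio of counts of Mir106b over Mir20a of 0.09 in replicate 1 and −0.34 in replicate 2. The ranges also overlapped for Mir19b-1 and Mir19a, and the other 5 steps in the order had ranges that did not overlap. Of 14 fixed ratios between neighbours or between members with the same seed, 12 had the same direction in both libraries. No two-sided sign-flip test over 2 libraries can give a p below 0.5, so these ratios are given without a test.

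Ratios between neighbours in 1 transcript ran, as the mean log2 ratio over libraries turned into a fold, from 1.49-fold for Mir93 over Mir106b to 1754-fold for Mir20a over Mir19a. Mir17 exceeded its neighbour Mir18 by 5.43-fold (log2 ratio of Mir18 over Mir17 −2.44 ± 0.05), and the log2 ratio of Mir93 over Mir106b was 0.58 ± 0.30. In counts summed over both libraries, Mir20a exceeded Mir19a 2284-fold (exact counting interval 781 to 11076), and Mir92-1 exceeded Mir19b-1 616-fold (240.4 to 2264). Among members with the seed AAAGUGC the log2 ratio to Mir17 was −0.58 ± 0.14 for Mir20a, −0.12 ± 0.14 for Mir93 and −0.70 ± 0.16 for Mir106b. Mir92-1 exceeded Mir25, which has the same seed in the other cluster, by 1.60-fold (log2 ratio of Mir25 over Mir92-1 −0.68 ± 0.11). These ratios compare counted reads and not molecules, since ligation and amplification can favour one arm over another.

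As sums, the clusters were close. The 6 Mir17hg members had 12685 counts in replicate 1 and 8900 in replicate 2, and the 3 Mcm7 members had 10377 and 7040. The log2 ratio of the Mir17hg sum over the Mcm7 sum was 0.29 in replicate 1 and 0.34 in replicate 2, a mean of 0.31 ± 0.03 or 1.24-fold. Together the 9 members held 0.558% (0.551 to 0.565, exact Clopper-Pearson 95% interval) of the counted reads of replicate 1 and 0.495% (0.487 to 0.503) of those of replicate 2.

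Genes were then grouped by the seed of the arm that names them, although a gene's count can include reads of its other arm. Most of the members' counts were at genes of the AAAGUGC group, whose 4 members held 0.472% and 0.420% of counted reads (mean 0.446% ± 0.0367), against 0.0571% and 0.0517% for the pair with AUUGCAC (mean 0.0544% ± 0.00382). Mir18 alone, with AAGGUGC, held 0.0284% and 0.0230%. The pair with GUGCAAA, the miR-19 seed, had 5 counts in replicate 1 and 2 in replicate 2. The AAAGUGC members exceeded the AUUGCAC members 8.21-fold (log2 ratio of summed counts 3.04 ± 0.02), and those exceeded Mir18 by 2.12-fold (1.09 ± 0.11). Reads aligned to several loci are in none of these sums, and the full arm miR-92a-3p occurs at another locus too. The AUUGCAC sum may thus lack reads of that arm, which was not tested, so these folds compare counts placed at 1 locus.

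The 2 hosts held nearly equal parts of the counts at AAAGUGC genes. Mir17 and Mir20a from Mir17hg made up 51.7% of them (51.0 to 52.4, exact Clopper-Pearson 95% interval) in replicate 1 and 52.6% (51.7 to 53.4) in replicate 2, and Mir106b and Mir93 from Mcm7 made up the rest. Of the counts at Mir92-1 and Mir25, Mir92-1 had 60.2% (58.2 to 62.2) and 62.8% (60.4 to 65.1), which may not be reads of miR-92a-3p, since that arm has an exact copy at another locus. Genes outside both clusters added little. The AAAGUGC seed is also on Mir106a, Mir20b and Mir6383, and the members held 99.4% ± 0.447 of the counts of all 7 genes with it. The AUUGCAC seed is also on Mir32, at 25.8 ± 4.49 CPM, Mir92b, at 15.8 ± 7.80 CPM, Mir92-2, Mir363 and Mir367, and the members held 89.1% ± 2.42 of the counts of these 7 genes. Mir6383 and Mir367 had 0 counts in both libraries.

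**Figure D3:**
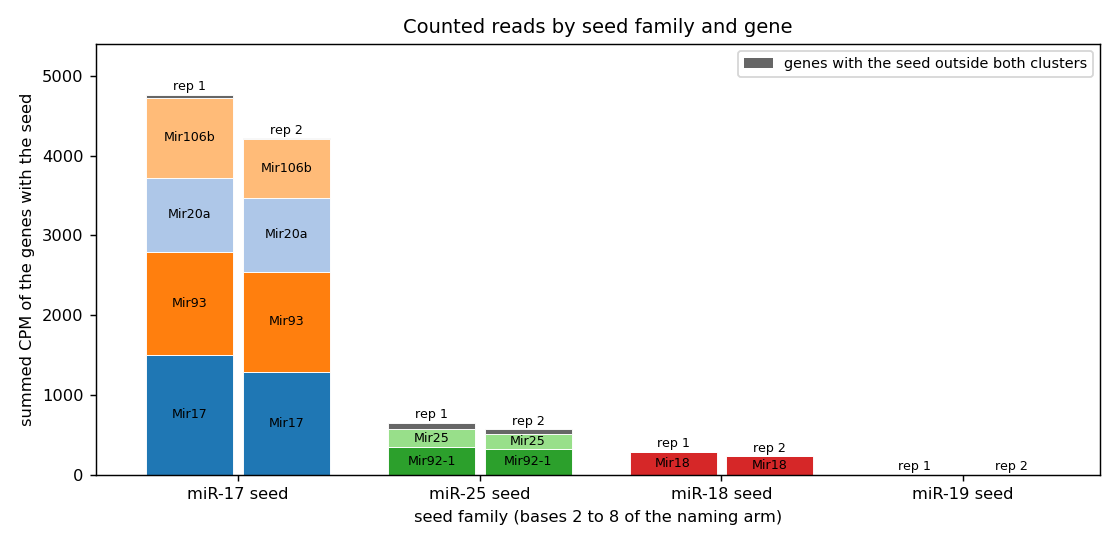
Summed CPM of the genes that carry each seed, as bars for replicates 1 and 2 stacked by gene, with genes outside both clusters in dark grey. The miR-17 seed (AAAGUGC) is far the tallest and is shared among Mir17, Mir93, Mir20a and Mir106b, and the miR-19 seed (GUGCAAA) has no visible bar. Reads aligned to several loci are in no bar.

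The near absence of counts at the miR-19 loci was read against the sequences they share with other hairpins. The full arm miR-19b-3p occurs in 2 annotated hairpins, Mir19b-1 and the X-linked Mir19b-2, and miR-92a-3p occurs in Mir92-1 and the X-linked Mir92-2. The 2 Mir19b hairpins share a stretch of 25 bases and the 2 Mir92 hairpins a stretch of 22 bases. None of the other 7 members shared 20 bases with another hairpin. Mir19a is one of these 7: its full arm occurs in no other annotated hairpin, and it differs from miR-19b-3p at 1 base. Over both libraries Mir92-1 had 2465 counts, Mir19b-1 had 4 and Mir19a had 3. Of the 115 genes with an arm that occurs in another annotated hairpin, 57.4% had 3 counts or fewer in the 2 libraries together. Of the 907 other genes with a RefSeq arm, 60.6% did. Only 639 of all 2202 genes had any count, so genes without counts for any reason weigh on both shares. The 2 shares therefore cannot tell whether a shared arm lowers the count of a gene.

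The other arms tell the duplicated loci apart, and they are printed to show where a read can be placed. Capitals mark the positions that differ when the 2 arms are lined up from the 5′ end without gaps.
miR-19b-1-5p: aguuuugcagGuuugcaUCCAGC
miR-19b-2-5p: aguuuugcagAuuugcaGUUCAGc
miR-92a-1-5p: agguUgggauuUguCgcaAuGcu
miR-92a-2-5p: agguGgggauuGguGgcaUuAc
Lined up in this way, the Mir19b arms differ at 7 of 23 compared positions and the Mir92 arms at 5 of 22. The Mir19b arms are 23 and 24 bases long. An inserted base would shift all later positions, so the 7 may overstate their difference. Which arm gave the reads counted at Mir92-1 cannot be read from a count per gene. The whole count of Mir17 equals 0.0447% of the reads aligned to several loci in replicate 1 and 0.0337% in replicate 2. These values give only the size of that row and do not tell which arms its reads came from. The low counts of Mir19a and Mir19b-1 cover only reads placed at 1 locus. Whether reads of these arms were among those aligned to several loci was not tested. No member had a read on the opposite strand in either library.

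The X-linked cluster, a paralogue of Mir17hg from Mir106a to Mir363 on the minus strand of chromosome X (52741693 to 52742567), was counted far less. Mir106a, with the seed AAAGUGC, had 86 and 19 counts, and Mir17 exceeded it 98.6-fold in summed counts (exact counting interval 81.3 to 121). Mir20b had 98 and 22 counts, and Mir20a exceeded it 57.1-fold (47.7 to 69.0). Mir92-2 had 59 and 47 counts, and Mir92-1 exceeded it 23.3-fold (19.1 to 28.5), although the 2 loci encode the same miR-92a-3p. Mir18b had 0 counts in both libraries, and against a limit of 3 counts per library Mir18 was at least 391-fold higher in replicate 1 and at least 247-fold higher in replicate 2. Mir19b-2 had 1 count in each library, so all 3 loci of the miR-19 seed were near 0. Mir363 had 73 and 15 counts.

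Between the 2 libraries the well-counted members differed little. Ratios of replicate 2 over replicate 1 were taken on CPM + 1 after TMM scaling (a trimmed mean of ratios) for the 261 genes that averaged 10 CPM or more, which include 7 of the 9 members and leave out Mir19a and Mir19b-1. None of the 7 passed 2-fold in either direction, where 4.98% of the 261 genes were past 2-fold lower in replicate 2 and 0.383% past 2-fold higher. Of the 7 members 4 were lower in replicate 2, against 55.9% of all genes, and 3 were higher, against 44.1%. The median log2 ratio of the 7 members was −0.06, beside −0.05 over all 261 genes, and their median absolute log2 ratio was 0.13 beside 0.18. Both shares are near the background.

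Mir106b had the lowest log2 ratio of the members, −0.28, with a counting interval of −0.35 to −0.21, and 23.4% of the genes lay below it. Mir18 (−0.13), Mir25 (−0.07) and Mir17 (−0.06) were slightly below 0 on the same scale. Mir20a was at 0.15 (counting interval 0.08 to 0.22), Mir93 at 0.14 (0.08 to 0.20) and Mir92-1 at 0.08 (−0.03 to 0.20). With scaling to the total count, which moved the median of the 261 genes by −0.16, these 3 turned to −0.02, −0.03 and −0.08, so all 7 members were then lower in replicate 2, as were 79.7% of the 261 genes. As sums on the TMM scale, the Mir17hg cluster had a log2 ratio of 0.02 and the Mcm7 cluster of −0.03. Of the X-linked paralogues, Mir106a (−1.51), Mir20b (−1.50) and Mir363 (−1.57) were lower in replicate 2, as their counts above show, and Mir92-2 (0.19) was not. The summed level of the 9 neuron and glia genes was also lower in replicate 2, at 1244 against 4297 CPM. Most of that sum was at 1 gene, Mir338 (mean 2761 CPM, log2 ratio −1.63), and all Mir124a and Mir9 loci were at 0. Counts at these loci leave out reads aligned to several loci, so values of 0 do not show absence. The part of this list in the X-linked difference was not tested.

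**Figure D4:**
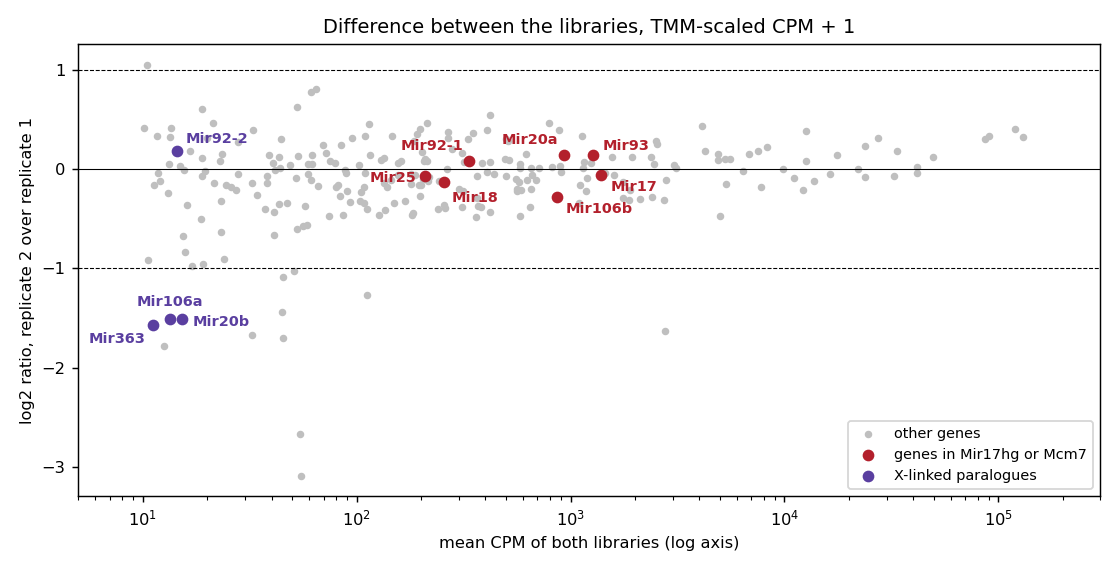
Log2 ratio of replicate 2 over replicate 1 (TMM-scaled CPM + 1) against mean CPM on a log axis for 261 genes, each point 1 gene, with dashed lines at 2-fold. The 7 tested genes of Mir17hg and Mcm7 (red) lie between −0.28 and 0.15, and 3 of 4 X-linked paralogues (purple) lie below −1.

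The spread of levels within the clusters was set beside that of the other annotated microRNA clusters. A cluster was taken as a run of genes on 1 strand, at most 10 kb apart, with 3 or more genes that had at least 10 summed counts, and 13 clusters met this. In mean CPM the highest measured gene exceeded the lowest 5.42-fold in Mir17hg and 6.08-fold in Mcm7, while the median of the 13 clusters was 52.8-fold and their range 1.37 to 8440-fold. Ordered from the widest to the narrowest, Mcm7 was in place 10 and Mir17hg in place 11 of 13. The value of Mir17hg leaves out its miR-19 genes, which are under 10 counts. That of the X-linked cluster, the narrowest, leaves out Mir19b-2 and Mir18b on the same rule. With every gene of at least 1 summed count, Mir17hg became 3509-fold, place 3 of 17 clusters, and Mcm7 stayed at 6.08-fold in place 14. The median of 52.8-fold is that of the Mir467e cluster, where 7 of 119 annotated genes had at least 10 summed counts. Reads aligned to several loci are in none of these levels, and their part in the spreads was not tested. Clusters also differ in their number of genes and share no test, so this is a description.

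**Figure D5:**
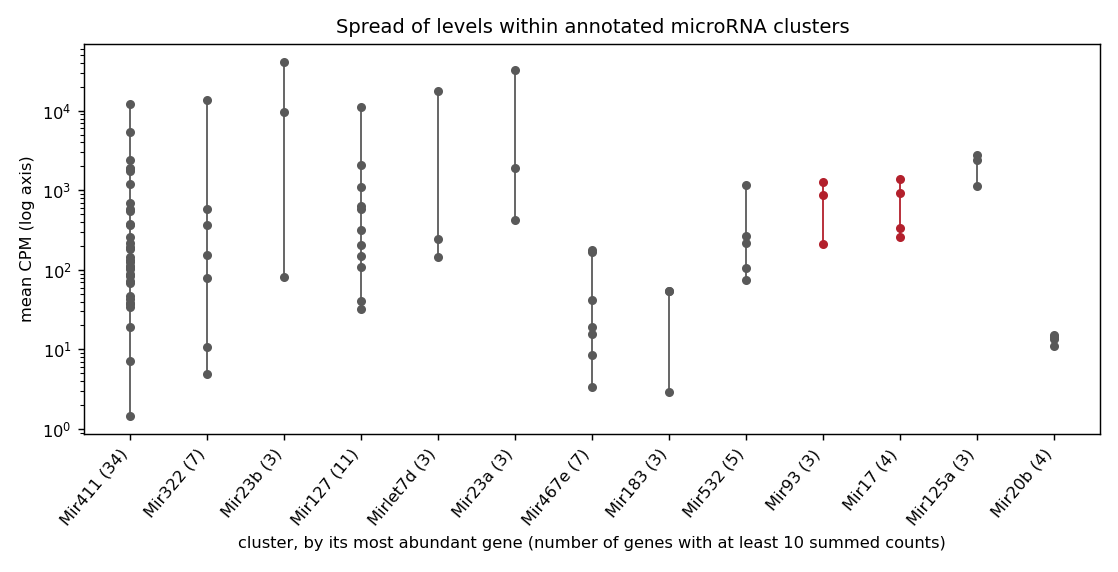
Mean CPM on a log axis of each gene with at least 10 summed counts, as points joined by a line for each of 13 annotated clusters, named by the most abundant gene with the number of such genes in brackets. The Mcm7 cluster (Mir93) and the Mir17hg cluster (Mir17), in red, span 6.08-fold and 5.42-fold, and only the Mir125a and Mir20b clusters of the 13 are narrower. The Mir17 and Mir20b clusters are each drawn without 2 of their 6 genes, which had fewer counts.

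Over the 2 libraries, the genes outside both clusters with the levels most like that of Mir17, by Euclidean distance in log2(CPM + 1), were Mir101b (1456 ± 147 CPM, distance 0.09) and Mir29c (1249 ± 61.3 CPM, distance 0.24). Those most like Mir93 were Mir29c (distance 0.07) and Mir532 (1154 ± 56.5 CPM, distance 0.21). Mir17 stood in place 54 and Mir93 in place 55 of 2202 genes by mean CPM, Mir20a in place 64, Mir106b in 68, Mir92-1 in 105, Mir18 in 117 and Mir25 in 126. Those 7 members all lay above the median of the 261 tested genes, which was 199.95 CPM, Mir25 only narrowly so.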

How the data were processed

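The authors deposited 1 table of whole-number read counts per library, with columns for reads ignoring strand, on the gene's strand and on the opposite strand, and 4 rows that name no gene. File descriptions deposited beside the tables name mm10 as the assembly and release M21 as the gene annotation. How reads were trimmed, aligned and counted is not given in the sources used.

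The gene-strand column was used. Library sizes left out those 4 rows. CPM, exact Clopper-Pearson 95% intervals (scipy 1.17.1) and log2 ratios of counts + 0.5 were computed, and TMM factors came from edgeR 4.0.16. The ratio calculation was run on simulated counts with known changes and sampling noise only. Those ratios were recentred on the genes left unchanged, so the run did not check the TMM scaling. With 1 group there was no test, and the spread of 2 libraries may be technical in part. The libraries' counts differed by more than sampling noise (chi-square 111.5 per degree of freedom over 362 genes), as separate preparations of 1 sample would too, so this shows only that the tables are not copies of 1 library. All 9 members matched a RefSeq arm, and all 1685 RefSeq arms placed on an annotated gene were found in its GENCODE hairpin. The members and lists were chosen with earlier results of these data known. Named genes were the members, the X-linked paralogues, genes of at least 10 CPM with a member's seed, and the 2 genes nearest each cluster's leader. Genes outside this rule were named where they complete a count, the sum of a list or a figure. Alternatives were the strand column, library sizes, scaling (DESeq2 1.42.0 among them), pseudocounts, minimums, distances and leaving out either library.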

Additional observations from a re-analysis of the deposited data

How the results depend on the processing

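The ratio of the cluster sums, the count of members past 2-fold (0 in every setting run) and the members sharing a stretch with another hairpin (2, with 18, 20 or 22 bases) stayed within their spread or count under all alternatives run. For the ratio this was fixed in advance by the alternatives. The strand column changes no member's count, and the pseudocounts are small beside the sums. Leaving out 1 of 2 libraries always moves a mean by less than the SD. Shares moved with the denominator. In the column that ignores strand, which has fewer counted reads, the Mir17hg share was 0.388% and the Mcm7 share 0.312%, with 0.594%, 0.0342% and 0.0723% for the miR-17, miR-18 and miR-25 seeds. Without the most abundant gene in the library size these were 0.335%, 0.270%, 0.513%, 0.0295% and 0.0625%. Of all reads they were 0.0587%, 0.0473%, 0.0899%, 0.00518% and 0.0109%, and the miR-19 seed was 1.86e-05%. The spread within Mir17hg became 3509-fold with genes of at least 1 summed count, which brings in the miR-19 genes. The log2 ratio of Mir106b over Mir20a, −0.12 on average, was −0.34 without replicate 1 and turned to 0.087 without replicate 2. Between libraries, total-count scaling turned Mir20a to −0.021, Mir93 to −0.027 and Mir92-1 to −0.084. No paired analysis was possible because there is 1 group. Mir19a and Mir19b-1, at 1 to 3 counts per library, are too low to be compared with each other. At these depths 3 counts equal 0.726 and 0.932 CPM in replicates 1 and 2.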

Other observations

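The shift between Mir93 and Mir106b was set beside that of other neighbours, a comparison chosen after its values were seen. Over 77 pairs of adjacent genes in annotated clusters with a mean of at least 10 CPM each, the median absolute difference of the log2 ratios between libraries was 0.14. It was 0.42 for Mir93 and Mir106b, and 8 pairs (10.4%) differed more, the most being the X-linked neighbours Mir363 and Mir92-2 at 1.76.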
